A study of Ovis aries with 14 samples.

Results

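The genes described here are 9 members of the Hippo pathway and its matricellular output, chosen by gene name in RNA sequencing of sheep ovaries. They are the upstream kinase STK3 and its scaffold SAV1, the kinases LATS1 and LATS2, the coactivators YAP1 and WWTR1, the DNA-binding partner TEAD1, and the target genes CTGF and CYR61. All 9 were found by symbol among the 16513 genes of the fetal table and among the 15863 and 16074 genes of the adult tables, and all 9 passed the filter of a mean normalized count of at least 10. Whole ovaries of Suffolk sheep, all labelled wild type, were sequenced in 14 libraries: 4 adult testosterone, 4 adult control, 3 fetal testosterone and 3 fetal control. Testosterone libraries came from animals whose mothers had intramuscular testosterone propionate in cottonseed oil between days 30 and 90 of gestation, and control libraries carry only the word control. Fetuses were at day 90 and adults at year 2.

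In the Hippo pathway a kinase cascade holds back a pair of transcriptional coactivators. STK3, held by SAV1, activates LATS1 and LATS2, which phosphorylate YAP1 and WWTR1 and keep them in the cytoplasm, and coactivators that escape bind TEAD factors in the nucleus and switch on genes such as CTGF and CYR61. In mouse ovaries the pathway is known for restraining follicle growth, and CTGF and CYR61 encode secreted proteins of the CCN family that act on the extracellular matrix, vessels and follicle cells. RNA levels do not show the phosphorylation or the location of YAP1 and WWTR1.

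Reads recovered per library ran from 22577382 to 33417500, so counting error was small beside the spread between animals. Libraries are named by their label numbers, 1 to 3 in fetuses and 4 to 7 in adults. The adult libraries stood apart from each other in their cell content. Adult testosterone 4 and 7 and adult control 6 had between 61705 and 110586 normalized counts of OXT, a hormone gene of sheep luteal cells, and the other 5 adult libraries had between 22.3 and 80.2. Adult control 4 had 278273 normalized counts of the smooth muscle myosin MYH11, and the other 7 had between 21146 and 111582. The oocyte and germ cell gene DDX4 and the follicle genes INHA and FST were measured, while AMH, FOXL2 and CYP19A1 were not matched by name. INHA was lowest in adult control 4, at 135 normalized counts, and highest in adult control 7, at 9215. The other adult libraries had between 321 and 5012. FST was also lowest in control 4 (174) and highest in control 7 (4822). In whole ovary a lower value can come from fewer cells of a type or from less RNA per cell, and these cannot be told apart. The labels do not say which animals shared a mother, so each p-value speaks for the spread among these samples alone.

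**Figure D1:**
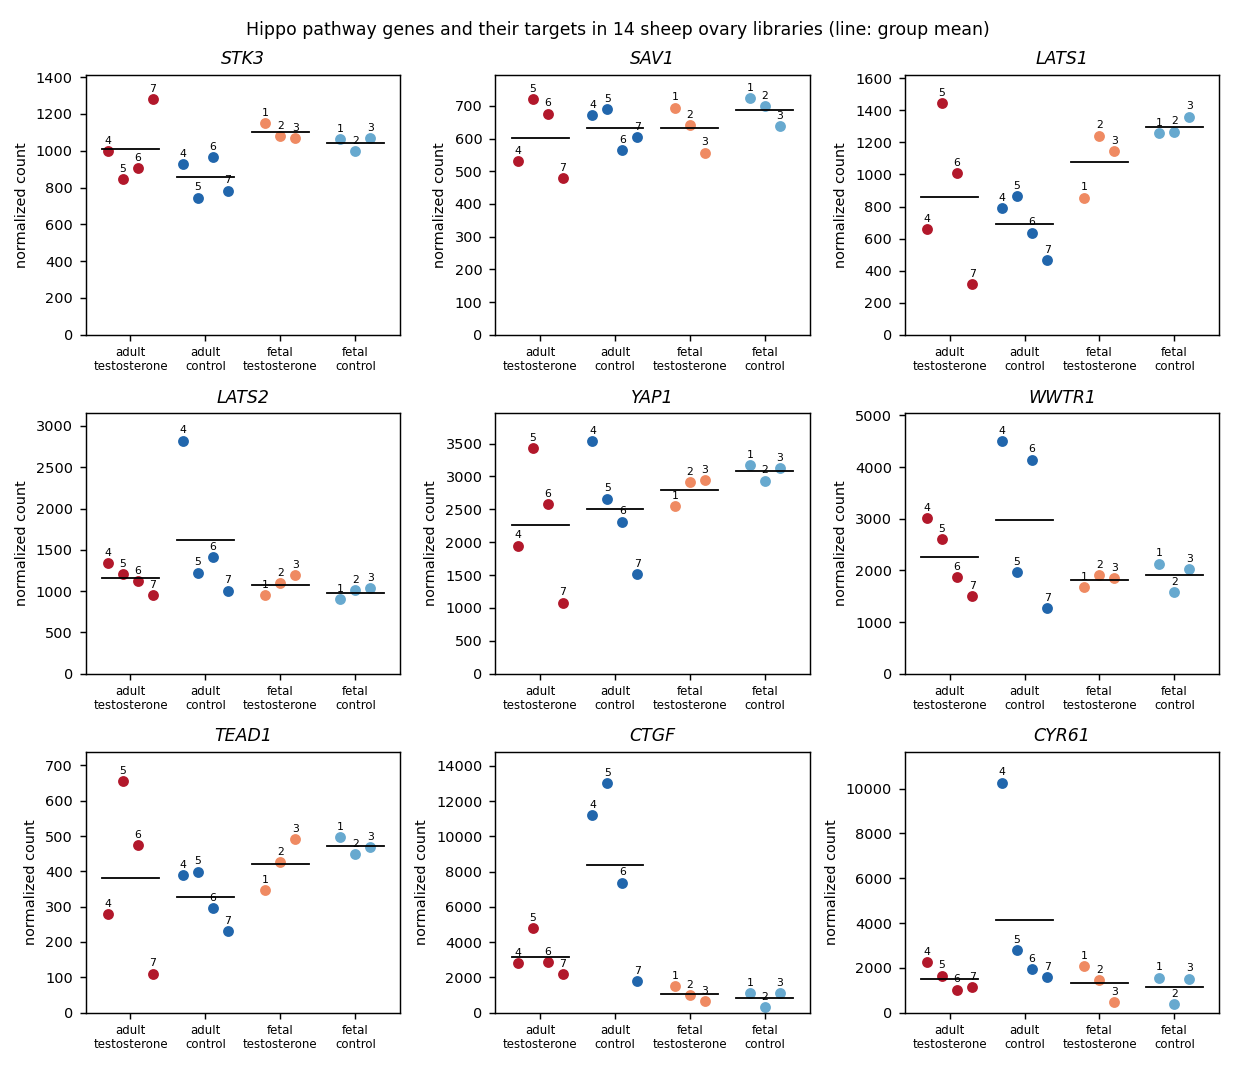
Normalized counts of the 9 genes in each of 14 libraries on 1 scale, adult testosterone, adult control, fetal testosterone and fetal control from left to right in each panel, with points numbered by library, lines at group means and each vertical axis starting at 0. CTGF was at 7377 or above in adult controls 4, 5 and 6 and at 4789 or below in the other 11 libraries, and LATS1, YAP1, WWTR1 and TEAD1 were lowest in number 7 within each adult group.

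The first comparison asked whether prenatal testosterone changed these genes in the adult ovary. CTGF and CYR61 had lower means in adult testosterone ovaries than in adult control ovaries, by 1.12 and 1.09 on the log2 scale, but neither passed the test. The 7 genes of the cascade and its coactivators differed by at most 0.37 on the log2 scale, in LATS2, and did not pass either. All 8 adult libraries were put on 1 scale through their recovered reads for this comparison.

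CTGF (ENSOARG00000014240), named CCN2 in RefSeq, is a classic YAP target that promotes matrix deposition. It had 2550, 4429, 2611 and 1980 normalized counts in adult testosterone 4, 5, 6 and 7, against 10189, 11952, 6638 and 1625 in adult control 4, 5, 6 and 7. Of the controls, 3 stood above every testosterone library and control 7 stood below them all, so the groups overlapped. The means were 2892 ± 1063 in adult testosterone and 7601 ± 4556 in adult control (SD, n = 4 each). The change was -1.12 (limma on log2 of the value plus 1, SE 0.59, 95% interval -2.45 to 0.21, adjusted p = 0.9999).

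CYR61 (ENSOARG00000014336), an angiogenic CCN protein and also a YAP target, had 2030, 1521, 937 and 1020 normalized counts in adult testosterone 4, 5, 6 and 7, against 9354, 2545, 1741 and 1458 in adult control 4, 5, 6 and 7. Control 4 stood far above the other 7 libraries, and the remaining controls lay within or just above the testosterone range. The means were 1377 ± 506 in adult testosterone and 3774 ± 3748 in adult control (SD, n = 4 each), a change of -1.09 (SE 0.56, limma adjusted p = 0.9999). Without control 4 the change of CYR61 was -0.51 and that of CTGF was -0.87. Control 4 was also the highest library for 9 smooth muscle genes, whose mean log2 level lay 2.54 above the average of the adult libraries in it and between -1.12 and 0.32 in the other 7. It was highest for 10 endothelial genes too, at 1.63. With the smooth muscle level as a covariate the change was -0.86 for CTGF and -0.50 for CYR61, and the part of cell content in the result was not tested beyond that.

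Among the kinases, LATS2 (ENSOARG00000013729) had 1211, 1111, 1030 and 859 normalized counts in adult testosterone 4 to 7, against 2570, 1123, 1267 and 917 in adult control 4 to 7. Control 4 stood far above the other 7 libraries. The LATS2 change of -0.37 became -0.07 without it. WWTR1 (ENSOARG00000004797), the coactivator also called TAZ, had 2727, 2412, 1720 and 1358 in adult testosterone 4 to 7, against 4102, 1802, 3729 and 1157 in adult control 4 to 7. Controls 4 and 6 lay above every testosterone library, control 5 among them and control 7 below them all, so the WWTR1 groups overlapped. The WWTR1 change was -0.26, and -8.5e-04 without control 4.

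The remaining 5 genes changed by between -0.20 for YAP1 and 0.23 for STK3 in the joined adult libraries. YAP1 (ENSOARG00000006660) had means of 2068 in adult testosterone and 2283 in adult control, and TEAD1 (ENSOARG00000008069), through which YAP1 reaches DNA, had 348 and 299. Of the 9 genes, 7 had a negative and 2 a positive change. None of the 9 passed limma, DESeq2 or edgeR, where these called 0.0127%, 0.0453% and 0.00635% of genes. Of the 9 genes 0 had an unadjusted limma p under 0.05, as 0.806% of the 15757 genes tested did, and 0 had groups that did not overlap, as held for 0.704%. Before adjustment CTGF and CYR61 were under 0.05 by DESeq2 and by edgeR but not by limma. The share of all genes under 0.05 before adjustment was counted for limma only. There is thus no background beside which to read the DESeq2 and edgeR values.

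**Figure D2:**
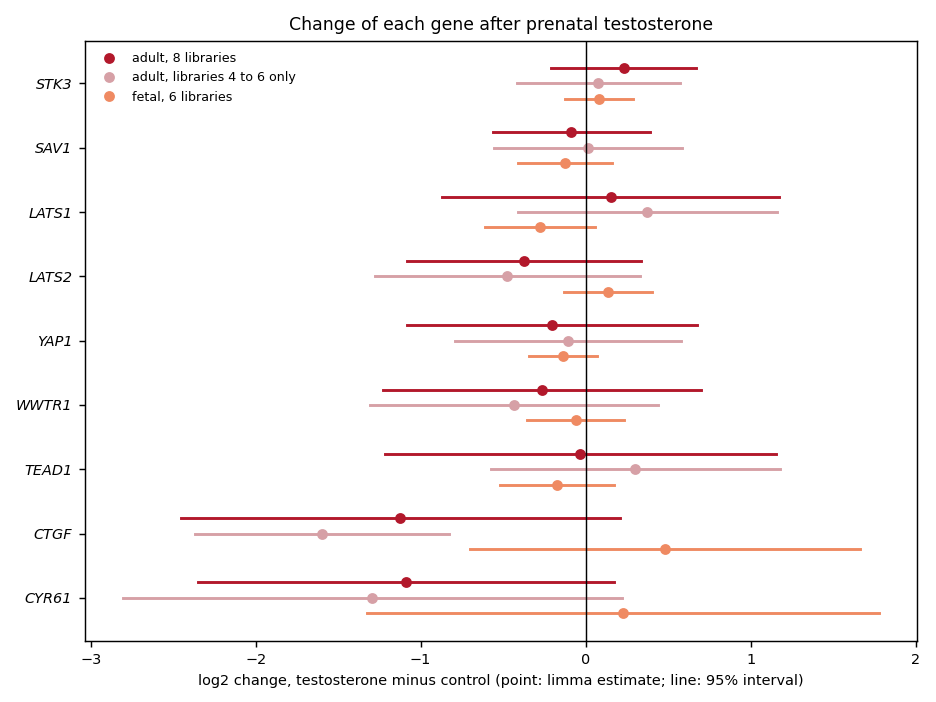
Log2 change of each gene, testosterone minus control, on the horizontal axis, with the limma estimate as a point and its 95% interval as a line, for the 8 adult libraries, for adult libraries 4 to 6 and for the 6 fetal libraries. The intervals of all 9 genes cross 0 in the 8 adult and the 6 fetal libraries, and that of CTGF lies below 0 in adult libraries 4 to 6.

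The authors split the adults into 2 tables that share 4 libraries, and of the 9 genes CTGF differed most between them. In the table with numbers 4, 5 and 6, CTGF had 2536, 4360 and 2591 normalized counts in testosterone, against 10110, 11859 and 6618 in control. These CTGF groups did not overlap, as held for 3.57% of the 15856 genes tested. The change was -1.60 (SE 0.32, 95% interval -2.37 to -0.83), and the limma p was 0.00184 before and 0.9999 after adjustment over all genes. On recovered reads DESeq2 gave CTGF an adjusted p of 0.0857, and the authors' deposited table lists a log2 fold change of -1.59 with an adjusted p of 0.0851.

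In the table with controls 4, 6 and 7 and testosterone 5, 6 and 7, CTGF had 4501, 2635 and 1987 in testosterone, against 10246, 6724 and 1629 in control. Control 7 was the lowest of the 6 libraries there, and the CTGF change was -0.75 (SE 0.68, limma adjusted p = 0.9998). CYR61 changed by -1.29 in the first table and by -1.34 in the second, with limma adjusted p of 0.9999 and 0.9998, and control 4 is in both. Limma called 0.00631% of genes in the first table and 0.00623% in the second, and 0 of the 9 genes in either.

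The CTGF change depended on which libraries were included. In the joined libraries the CTGF change was -1.75 without control 7, still short of the adjusted threshold by limma, and it was -0.79 without control 5. Both number 7 libraries were the lowest of their group for 6 of the 9 genes, namely LATS1, LATS2, YAP1, WWTR1, TEAD1 and CTGF, a pattern noticed after the values were seen that held for 9.996% of all genes tested. Between the number 7 libraries alone, CTGF was higher in testosterone than in control by 0.29 on the log2 scale. Number 7 against the others as a term is balanced between the groups and cannot move the estimate, and with it the SE of the CTGF change was 0.39 (limma adjusted p = 0.9999). The authors headed the number 7 columns C7-Adult and T7-Adult, where the headers of the other adults begin with AD. The header of testosterone 5 also ends in the word Resub. The labels do not say whether number 7 was collected or sequenced apart from the rest.

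Across the 8 adult libraries LATS1, TEAD1, YAP1 and SAV1 were high and low in nearly the same libraries, and STK3, LATS2 and WWTR1 were not among them. LATS1 (ENSOARG00000002830) had 598, 1338, 922 and 287 normalized counts in adult testosterone 4 to 7, against 721, 791, 573 and 425 in adult control 4 to 7. TEAD1 had 252, 606, 435 and 99.8 in adult testosterone 4 to 7, against 354, 366, 266 and 211 in adult control 4 to 7. Both were highest in testosterone 5 and lowest in testosterone 7, with the controls between.

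YAP1 had 1761, 3171, 2364 and 977 in adult testosterone 4 to 7, against 3227, 2442, 2082 and 1381 in adult control 4 to 7. SAV1 (ENSOARG00000020654), the scaffold that couples STK3 to the LATS kinases, had 480, 666, 620 and 432 in adult testosterone 4 to 7, against 613, 633, 508 and 550 in adult control 4 to 7. YAP1 and SAV1 were also lowest in testosterone 7 and high in testosterone 5. STK3 (ENSOARG00000003080), also called MST2, ran the other way, with 901, 781, 830 and 1159 in adult testosterone 4 to 7, against 845, 683, 867 and 714 in adult control 4 to 7. Its highest library, testosterone 7, was the lowest for LATS1, TEAD1, YAP1 and SAV1.

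As a description, after group means were subtracted, log2 levels over the 8 adult libraries correlated at r = 0.99 for LATS1 with TEAD1, 0.95 for LATS1 with YAP1, 0.94 for YAP1 with TEAD1, and 0.92 for both SAV1 with TEAD1 and SAV1 with LATS1. The coefficient was -0.79 for STK3 with SAV1 and -0.77 for STK3 with TEAD1. LATS2 correlated at 0.39 with LATS1, 0.38 with TEAD1 and 0.26 with SAV1, but at 0.64 with YAP1. WWTR1 correlated at 0.43 with LATS1, 0.40 with TEAD1 and 0.11 with SAV1, but at 0.62 with YAP1. LATS2 and WWTR1 correlated at 0.82 with each other. CTGF and CYR61 correlated at 0.57, and CYR61 with LATS2 at 0.93, with control 4 far above the other libraries for both CYR61 and LATS2. These libraries share their size factors and their mixture of cell types. The 3 libraries high in OXT were the lowest of the 8 for SAV1, and without them the testosterone change was 0.77 for TEAD1, 0.83 for LATS1 and 0.30 for YAP1, with 0 of the 9 genes passing the test. The part of luteal tissue in the pattern was not tested.

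**Figure D3:**
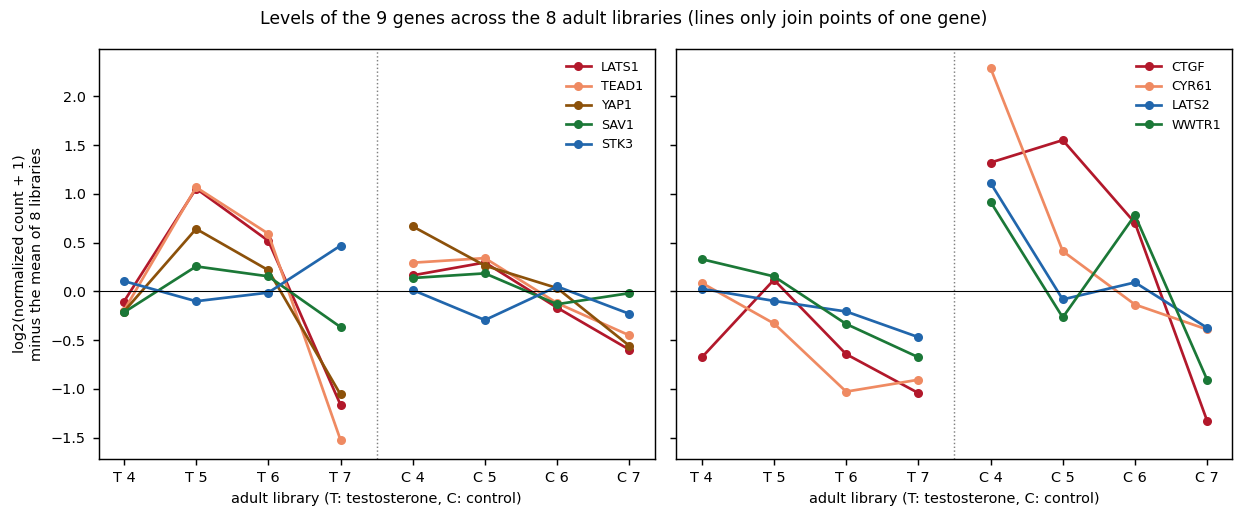
Log2 of the normalized count plus 1, minus the mean of the 8 adult libraries, for each of the 9 genes, with testosterone libraries left of the dotted line and control libraries right of it. LATS1 and TEAD1 trace nearly the same course (r = 0.99 after removal of group means), STK3 is highest where they are lowest, and CYR61 is highest in control 4.

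The genes whose adult pattern was most like that of CTGF, among 10154 named genes with a mean of at least 100, were B4GALT1, a galactosyltransferase (r = 0.94), the secreted serine protease HTRA3 (r = 0.94) and the stress kinase MAP3K20 (r = 0.94). B4GALT1 had 1508, 1676, 1513 and 1095 normalized counts in adult testosterone 4 to 7, against 1967, 1911, 1855 and 967 in adult control 4 to 7. As in CTGF, controls 4 to 6 of B4GALT1 lay above all testosterone libraries and control 7 below them. In HTRA3 and MAP3K20 control 7 was also lowest, at 1435 and 321. Their control 6, at 3128 and 880, lay below testosterone 5, at 3288 and 997. Those most like CYR61 were OAZ2 (r = 0.998), an inhibitor of ornithine decarboxylase, S100A13 (r = 0.97), a calcium-binding protein, and CCDC43 (r = 0.97), and each was ranked over 8 libraries with control 4 at one end.

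None of the related genes passed the test in the joined adult libraries. Among 16 other genes of a YAP target signature, 9 had a negative and 7 a positive change, with a median of -0.20 beside -0.0054 over all genes, and the smallest p was that of AMOTL2, an angiomotin that binds YAP1, with means of 2807 in adult testosterone and 4090 in adult control (-0.55, SE 0.27, limma adjusted p = 0.9999). Among 17 upstream Hippo regulators the signs were 9 positive and 8 negative. Among 10 other matricellular genes 7 were negative, with SPARCL1 at 11581 in adult testosterone and 34906 in adult control (-0.92, adjusted p = 0.9999). Control 4 had 104388 normalized counts of SPARCL1 and the other controls between 10952 and 13044, and without it the change was -0.13. In the table with numbers 4 to 6 all 10 were negative with a median of -0.84, beside -0.011 over all genes. There 9 of 9 smooth muscle genes were negative too, with a median of -0.74, and 0 of either list passed limma. Control 4 is in that table. On the joined scale it had 5474 normalized counts of TNC and 2509 of THBS4, far above every other adult library. In the table with numbers 4 to 6 F3, the tissue factor gene and a YAP target, had means of 135 in testosterone and 243 in control (-0.81, adjusted p = 0.9999).

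The second comparison asked the same question in the ovary at fetal day 90, the end of the treatment window. The Hippo genes were close in both fetal groups, and CTGF and CYR61 varied several fold within each group. None of the 9 genes passed limma, DESeq2 or edgeR, with limma adjusted p between 0.580 and 0.928, and 0 had an unadjusted p under 0.05. Over all genes limma called 0.0182% of 16513, DESeq2 1.76% of 14905 and edgeR 0.0242%, and 9.76% had an unadjusted limma p under 0.05.

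STK3 had 1281, 1218 and 1186 normalized counts in fetal testosterone 1, 2 and 3, against 1187, 1111 and 1184 in fetal control 1, 2 and 3. SAV1 had 773, 723 and 618 in fetal testosterone, against 810, 779 and 709 in fetal control. Both pairs of groups overlapped, with changes of 0.08 (SE 0.09) for STK3 and -0.12 (SE 0.12) for SAV1. STK3 varied less within groups than nearly all genes, since only 2.79% of genes had a smaller residual SD on the log2 scale (0.06 for STK3, against a median of 0.19 over all genes).

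LATS1, the kinase that inactivates YAP1, had 953, 1399 and 1269 in fetal testosterone, against 1404, 1414 and 1510 in fetal control. It was the only one of the 9 genes whose fetal groups did not overlap, below the controls, as held for 7.46% of all genes tested in that direction and 16.3% in either. The gap between the groups was small, testosterone 1 stood apart, and the change of -0.28 (SE 0.14, limma adjusted p = 0.580) was -0.11 without that library. LATS2 had 1057, 1238 and 1321 in fetal testosterone, against 1007, 1127 and 1148 in fetal control, with a change of 0.14 (SE 0.12).

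YAP1 had 2834, 3282 and 3267 in fetal testosterone, against 3547, 3275 and 3464 in fetal control. WWTR1 had 1874, 2154 and 2055 in fetal testosterone, against 2382, 1758 and 2246 in fetal control. TEAD1 had 386, 479 and 544 in fetal testosterone, against 556, 500 and 521 in fetal control. The groups overlapped for all of them, with changes of -0.13 for YAP1, -0.06 for WWTR1 and -0.17 for TEAD1, and testosterone 1 held the lowest value of YAP1 and TEAD1.

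CTGF had 1678, 1098 and 713 in fetal testosterone, against 1227, 327 and 1204 in fetal control. CYR61 had 2297, 1632 and 505 in fetal testosterone, against 1749, 402 and 1677 in fetal control. Both were lowest in control 2, next lowest in testosterone 3 and highest in testosterone 1, so the spread within groups exceeded the difference between them. The CTGF means were 1163 ± 486 in fetal testosterone and 919 ± 513 in fetal control, and those of CYR61 were 1478 ± 906 and 1276 ± 758 (SD, n = 3 each). The changes were 0.48 for CTGF (SE 0.51, limma adjusted p = 0.776) and 0.23 for CYR61 (SE 0.68, adjusted p = 0.928). Without control 2 they turned to -0.15 and -0.47, and without testosterone 1 that of CYR61 was -0.22.

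The residual SD of CTGF, 0.89 on the log2 scale, was larger than in 96.7% of genes, and that of CYR61, 1.18, larger than in 98.6%. Their fetal log2 levels correlated at r = 0.95 over 6 libraries after removal of group means. Of 5 immediate early genes, which cells switch on within minutes of a stimulus, FOS, EGR1 and JUNB had the same ends as CTGF and CYR61, and ATF3 and NR4A1 did not. FOS had 5980, 3239 and 1005 in fetal testosterone, against 2009, 596 and 4177 in fetal control. EGR1 had 11325, 6537 and 3229 in fetal testosterone, against 5386, 1794 and 8918 in fetal control. Both were highest in testosterone 1 and lowest in control 2. ATF3 was highest in testosterone 1 (208) but lowest in testosterone 3 (82.1), and NR4A1 was highest in control 3 (3221) and lowest in testosterone 2 (1278). Over 15 immediate early genes the mean log2 level relative to the fetal average was highest in testosterone 1, at 0.74, and lowest in control 2, at -0.68. Their part in the CTGF and CYR61 values was not tested.

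**Figure D4:**
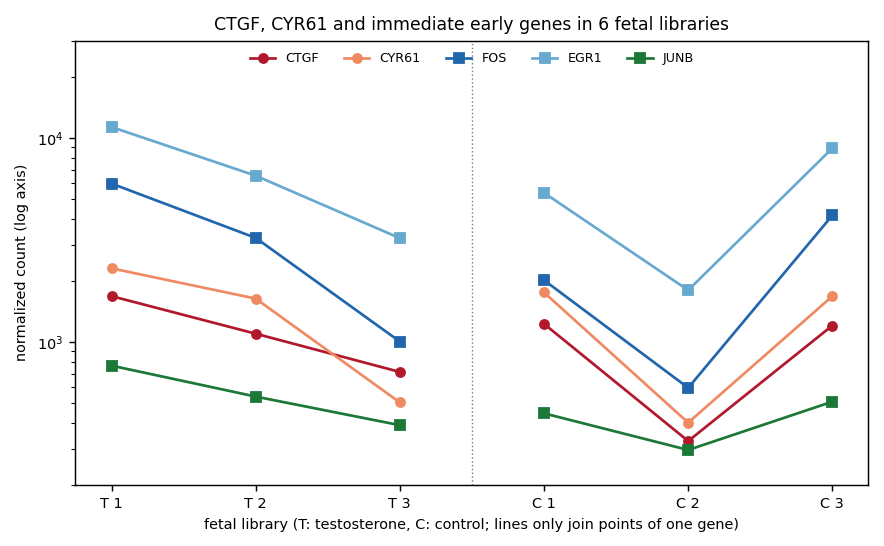
Normalized counts on a log axis of CTGF, CYR61 and the immediate early genes FOS, EGR1 and JUNB in the 6 fetal libraries, testosterone left of the dotted line and control right of it. All 5 genes were highest in testosterone 1 and, within the controls, lowest in control 2.

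Related genes gave no call in the fetal comparison either. Of 17 upstream Hippo regulators 14 had a negative change, with a median of -0.14 beside -0.02 over all genes. The smallest p was that of TAOK1, a kinase that activates the pathway, with means of 714 in fetal testosterone and 1066 in fetal control (-0.57, SE 0.18, limma adjusted p = 0.386). Among 13 partners of YAP and TEAD, AMOT, an angiomotin that holds YAP1 at junctions, had 1256 in fetal testosterone and 1567 in fetal control (-0.33, SE 0.11, adjusted p = 0.441). Among 16 YAP target genes 9 were positive and 7 negative, and among 10 matricellular genes 6 were positive and 4 negative.

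The third comparison set the adult effect of testosterone against the fetal effect. CTGF changed by -1.12 in adults and by 0.48 in fetuses, and the tested difference was -1.61 (SE 1.07, 95% interval -3.91 to 0.70, limma adjusted p = 0.9999). For CYR61 the difference was -1.32 (SE 1.34, adjusted p = 0.9999). None of the 9 genes passed, where limma called 0.00659% of 15175 genes. The other 7 differences lay between -0.51 for LATS2 and 0.43 for LATS1.

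The fourth comparison set adult control ovaries against fetal control ovaries, with all 14 libraries brought to 1 scale through their recovered reads. CTGF was higher and LATS1 lower in the adult ovary, and these 2 of the 9 genes passed limma. One was higher and one lower, while limma called 28.7% of the 15168 genes tested, 13.7% higher and 15.0% lower, so the share of members called was near the background. Non-overlap held for 5 of the 9 genes and for 40.5% of all genes.

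CTGF had 11188, 13043, 7377 and 1783 normalized counts in adult control 4 to 7, against 1097, 293 and 1085 in fetal control 1 to 3. Every adult control lay above every fetal control, with control 7 the closest to them. CTGF rose by 3.23 on the log2 scale (SE 0.93, 95% interval 1.12 to 5.34, limma adjusted p = 0.0313), and DESeq2 gave an adjusted p of 1.2e-05. The call was lost without adult control 4, where the change was 2.98 (limma adjusted p = 0.0545), without control 5, where it was 2.90 (adjusted p = 0.145), and without control 6, where it was 3.18 (adjusted p = 0.0866). It held without each of the other 4 libraries. In the testosterone libraries CTGF had 2819, 4789, 2849 and 2191 in adults, against 1507, 975 and 643 in fetuses. It rose there by 1.63 (SE 0.41, limma adjusted p = 0.0176), where 29.6% of genes were called and 14.4% were called higher.

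LATS1 had 792, 863, 637 and 466 in adult control 4 to 7, against 1256, 1268 and 1361 in fetal control 1 to 3. The groups stood well apart, and LATS1 fell by 0.95 on the log2 scale (SE 0.20, 95% interval -1.39 to -0.50, limma adjusted p = 0.00939). The call held when each library was left out in turn. In the testosterone libraries LATS1 had 662, 1446.5, 1006 and 317 in adults, against 856, 1242 and 1144 in fetuses. Those groups overlapped, with testosterone 5 above every fetus, and the change of -0.52 (SE 0.37, adjusted p = 0.325) did not pass. The difference between the LATS1 age changes was that of the third comparison, 0.43 (SE 0.46), and did not pass.

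CYR61 had 10271, 2777, 1934 and 1600 in adult control 4 to 7, against 1565, 361 and 1511 in fetal control 1 to 3. The groups did not overlap, but the nearest values almost touched, and the change was 1.69 (SE 0.99, limma adjusted p = 0.231). DESeq2 called it with an adjusted p of 0.0409, as it did 34.9% of genes, and edgeR did not, with 0.140, where it called 20.7%. TEAD1 had 389, 399, 295 and 231 in adult control 4 to 7, against 497, 448 and 469 in fetal control 1 to 3, all adults below all fetuses, with a change of -0.55 (SE 0.23, limma adjusted p = 0.0984). STK3 changed by -0.29, YAP1 by -0.36, SAV1 by -0.12, WWTR1 by 0.46 and LATS2 by 0.60, with adjusted p between 0.111 and 0.641.

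**Figure D5:**
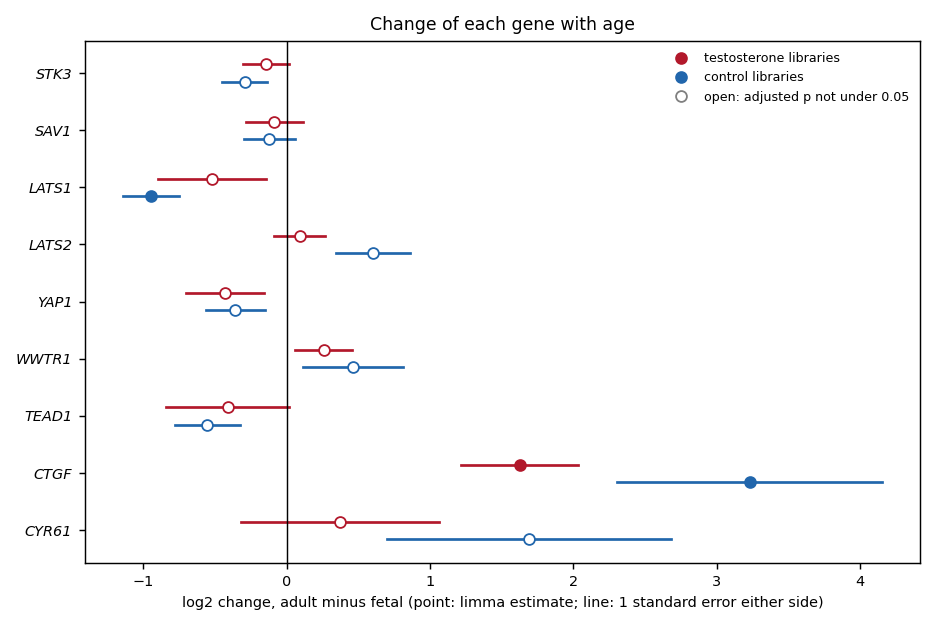
Log2 change of each gene, adult minus fetal, on the horizontal axis, in testosterone libraries and in control libraries, with the limma estimate as a point and 1 standard error on each side as a line. Filled points passed an adjusted p under 0.05, which were CTGF in both sets and LATS1 in controls.

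Other genes of the pathway differed with age in both directions. Of 17 upstream regulators 3 rose and 3 fell, or 35.3% beside 28.7% of all genes. FAT4, a giant cadherin upstream of the cascade, fell to 3014 in adult control, against 8112 in fetal control (-1.48), and WWC1, also called KIBRA, fell to 209.6, against 677 (-1.81), as did TAOK1, at 359 in adult control, against 956 in fetal control (-1.68). RASSF1, a scaffold for STK3, rose to 1256 in adult control, against 702 in fetal control (0.80), and the kinase STK38L (0.69) and the LIM protein AJUBA (0.59), which binds LATS kinases, rose as well.

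Of 12 partners of YAP and TEAD 3 rose and 3 fell, or 50.0%. VGLL3, a TEAD cofactor, rose to 220.1 in adult control, against 32.2 in fetal control (2.68), and TEAD4 rose to 312, against 78.8 (1.82), while the 14-3-3 protein gene YWHAB rose by 0.71. The angiomotins AMOT and AMOTL1 fell by 1.17 and 0.77 on the log2 scale, and YWHAZ fell by 0.49. The ages did not overlap for 8 of the 12 partners, AMOT and YWHAZ among them, with 3 higher and 5 lower in adult control. Non-overlap held for 40.5% of all genes tested.

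Of 16 YAP target genes 4 rose and 1 fell, or 31.2%. They were AMOTL2 (4492 in adult control and 1995 in fetal control, 1.14), F3 (242 and 70.6, 1.72), the stress gene GADD45A (2.04) and CRIM1 (1.28), a membrane protein that binds growth factors, while the membrane repair gene MYOF fell by 0.54. Of 9 other matricellular genes THBS1 (18034 in adult control and 2418 in fetal control, 2.65) and THBS2 (1.80) rose, and THBS4 fell (-2.73). THBS1 and THBS2 encode thrombospondins that restrain vessel growth. Among TGF-beta genes TGFB1, a ligand that induces CTGF, rose by 2.00, and the receptor TGFBR1 fell by 1.02.

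Of the 23 genes of these pathway lists that passed in the age comparison, 6 kept their call whichever control library was left out, namely FAT4, WWC1, VGLL3, YWHAB, TEAD4 and THBS1. All 23 had the same sign in the testosterone libraries, where 12 passed the test. On recovered reads edgeR did not call 9 of the 23, among them TAOK1, AMOT, THBS2 and THBS4, and DESeq2 did not call 1, MYOF. Markers of some cell types differed with age too, beside 13.7% of all genes called higher and 15.0% called lower by limma. The share called varied by type, with 4 of 5 granulosa and 5 of 8 luteal genes higher, but 1 of 10 endothelial and 2 of 8 macrophage genes. The endothelial and macrophage shares lay below the 28.7% of all genes called in either direction. Smooth muscle genes rose in 7 of 9 cases (77.8%), with a median over the list of 2.64. Only 4 of the 8 listed germ cell genes were tested, and 3 of these (75.0%) fell, with a median over the 4 of -5.10. Of 15 immediate early genes 6 rose (40.0%), among them JUNB (3505 in adult control and 375 in fetal control, 3.06, limma adjusted p = 0.00234). Adult and fetal tables were normalized apart by the authors, and the part of cell content, handling and processing in the age differences was not tested.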

How the data were processed

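Frozen whole ovaries were sequenced as read pairs, per the labels' protocols. The submitters' processing notes name Trimmomatic 0.36 and STAR 2.5.2b, and no source used here names a genome build or counting program. The authors deposited 3 tables. Each holds a signal per gene and library, a count divided by a size factor, beside the authors' own log2 fold change with its p-value, raw and adjusted. Division by the smallest step gave whole reads for 100% of values (tolerance 0.01 of a read).

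Normalized values were tested with limma 3.58.1 in R 4.3.3, using a mean-variance trend. The scale was log2 after a pseudocount of 1, genes needed a mean of 10 or more, and Benjamini-Hochberg adjustment covered all genes at a threshold of 0.05. Alternatives were DESeq2 1.42.0 and edgeR 4.0.16 (quasi-likelihood) on recovered reads, pseudocounts of 0.5 and 5, a mean of 50 or more, quantile normalization, left-out libraries, the replicate block and marker covariates. All 3 tools were tested on simulated data. Joined adult libraries (8) and all libraries (14) were scaled again by DESeq2 size factors over 15773 and 15175 shared genes. Adult control 6 came from the table with more of its reads, 33417500 against 26389902. The comparisons across ages let the spread differ by age through limma array weights.

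The members and lists were chosen with earlier results of these data known. From each list the genes that passed were named, up to 4 per direction, or else the gene of smallest p, and FOS, JUNB, EGR1, ATF3 and NR4A1 were followed throughout; 1 gene that the rule would name is not reported here. Likeness was Pearson's r after removal of group means. RefSeq symbols (ARS-UI_Ramb_v3.0) matched 8 of the 9 members.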

Additional observations from a re-analysis of the deposited data

Results flagged for a closer look

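CYR61 in adult control 4 stood apart from the other 3 adult controls, at 9354 normalized counts, against 2545 for the next highest. The gap was 0.862 of the whole range of the 4 values. This was the 1 library flagged among 18 groups of 4 libraries examined for a value far from the rest, and chance flags about 1 in 20 such groups. The same library was the highest of the adults for smooth muscle and endothelial markers. Without it the change of CYR61 in adult testosterone was -0.51 in place of -1.09.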

How the results depend on the processing

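None of the 9 genes passed in any testosterone comparison under any alternative run. Single-gene log2 values were counted over all comparisons and all alternatives other than leaving out 1 library. Of these, 964 kept their direction and side of the threshold, 33 lost the call and 1 gained it, and 17 changed sign. The alternatives counted include the run without the 3 libraries high in OXT. For age they also include testosterone libraries in place of controls, which are other animals. Groups held 3 or 4 libraries and adult cell content was uneven. The adult CTGF change of -1.12 did not reach a call, and the reason was not tested.

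The fetal count of genes called, 3 by limma, was 262 by DESeq2 and lay between 0 and 13 with 1 library left out. The count in adults 4 to 6 was 1 by limma, 0 by edgeR and 4 by DESeq2, and the count in the second adult table was 1 by limma, 0 by edgeR and 5 by DESeq2, with 0 in both whichever library was left out. In the 8 adult libraries it was 2 by limma, 1 with a mean of at least 50, 1 by edgeR, 7 by DESeq2, between 1 and 3 with 1 library left out, and, added after the data were seen, 1 with number 7 as a term and 1 without the 3 libraries high in OXT. The age count of 4349 genes was 5185 by DESeq2, 4621 with quantile normalization, 3146 by edgeR and 3169 with 1 spread for all libraries. With 1 library left out it lay between 2057 (without adult control 5) and 4036, and was 2816 without adult control 6. The age count of members, 2, was 3 by DESeq2, 1 in the testosterone libraries, and between 1 and 2 with 1 library left out. The count for the difference between ages, 1, was 10 by DESeq2 and between 1 and 2 with 1 library left out, the higher without fetal control 2.

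Same-numbered libraries did not deviate together (r between 0.01 and 0.40 in fetuses and between -0.64 and 0.30 in the 8 adults), so the numbers were not taken as pairs. Only number 3 of the fetuses and number 5 of adults 4 to 6 correlated best with its own number. With the replicate block limma called 10 genes in fetuses, 0 in either adult table, 0 in the 8 adults and 0 of the 9 members in each. In the second adult table it turned the sign of SAV1 (-0.033), TEAD1 (-0.18) and SMAD3 (-0.047).

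In the 8 adults TEAD1, at -0.03, was 0.21 by edgeR, 0.22 by DESeq2, 0.18 with the luteal and 0.27 with the smooth muscle level as covariate, and 0.77 without the libraries high in OXT. TGFBI, at 0.41, was -0.047 by edgeR and -0.065 by DESeq2. The smooth muscle covariate turned SAV1 (0.028), YAP1 (0.095), TEAD3 (0.023) and SPARCL1 (0.013), and leaving out the libraries high in OXT turned SAV1 (0.10) and YAP1 (0.30). YAP1 in the difference between ages was 0.035 by edgeR. The cause of these changes was not tested.

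With 1 library left out, signs turned in fetuses for CTGF (-0.15 to 0.80), CYR61 (-0.47 to 0.87) and WWTR1 (-0.19 to 0.027). They turned in adults 4 to 6 for STK3 (-0.027 to 0.13), SAV1 (-0.10 to 0.15) and YAP1 (-0.31 to 0.10), and in the second table for SAV1 (-0.10 to 0.22), LATS1 (-0.12 to 0.99), TEAD1 (-0.37 to 0.93) and YAP1 (-0.47 to 0.39). They turned in the 8 adults for SAV1 (-0.19 to 0.022), LATS1 (-0.17 to 0.56), TEAD1 (-0.39 to 0.47), YAP1 (-0.45 to 0.12) and TGFBI (-0.17 to 1.01). In the difference between ages they turned for SAV1 (-0.057 to 0.14), TEAD1 (-0.21 to 0.64), WWTR1 (-0.55 to 0.057) and YAP1 (-0.31 to 0.24).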
